A study of Mus musculus with 6 samples.

Results

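Aminoacyl-tRNA synthetases are the enzymes that join each amino acid to its tRNA. The 36 synthetase genes described here, 20 of the cytosol and 16 of the mitochondrion, were taken by gene symbol from a list of mouse names, out of 21965 genes in the count table. All 36 had a total of at least 10 counts and were among the 14792 genes tested. In their mRNA, EPCs from CAP-exposed mice were set against EPCs from mice that breathed filtered air, and the cytosolic set was set beside the mitochondrial set. EPCs are endothelial progenitor cells, here grown from bone marrow, and CAP is concentrated ambient fine particulate matter.

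The CAP group was 3 male C57BL/6 mice (C57BL/6J according to the methods of the study) that inhaled CAP at a mean level of 67 µg/m3, daily for 6 h and on 30 days. The Air group was 3 male mice of the same strain that inhaled filtered air on the same schedule. Neither the labels nor the methods name a transgene or deletion in either group. The mice of both groups were obtained at 11 weeks of age and acclimated for 1 week, and 1 RNA library was made per mouse. As 1 cage held all mice of a group, effects of the cage cannot be told apart from those of the exposure. The cells of both groups were cultured before RNA isolation, for 10 days according to the methods of the study and for 12 days according to the sample labels.

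The libraries held 28713206 to 30446171 counts. The genes that mark macrophages were abundant (the lysozyme gene Lyz2 had 282568 to 377406 normalized counts per library), while most endothelial markers were scarce: Cdh5, the gene of VE-cadherin, had 188, 58.8 and 179 normalized counts in the CAP libraries and 211, 239 and 956 in the Air libraries, and the receptor gene Tek was at 0 in CAP replicates 1 and 2. The endothelial list was not uniform. Eng had 1467 to 2056 normalized counts per library, and Kdr was highest in CAP replicate 2, with 526. CAP replicate 2 stood apart, with the highest level of the 6 libraries for 29.8% of all tested genes and the lowest level for 10 of 10 stromal markers. The main values are therefore also given without it. In these bulk samples, fewer cells of a type and less RNA per cell cannot be told apart.

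All of these enzymes are encoded in the nucleus. The cytosolic enzymes serve protein synthesis on cytosolic ribosomes, and separate genes, most with names ending in 2, encode enzymes that are imported and serve mitochondrial translation. Gars and Kars are exceptions, as each supplies both compartments from 1 gene. Several cytosolic enzymes sit together in the multisynthetase complex, and many cytosolic synthetase genes are known targets of ATF4, the transcription factor that is made when cells lack amino acids or when the endoplasmic reticulum is stressed. Some synthetases also act outside translation: in human cells, secreted forms of tyrosyl- and threonyl-tRNA synthetase promote angiogenesis, and a fragment of tryptophanyl-tRNA synthetase inhibits it.

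The cytosolic set was higher in the CAP libraries as a whole. All 20 cytosolic genes had a positive log2 fold change (CAP over Air), against 48.8% of all tested genes, and their median was 0.44 (1.36-fold), against −0.01 for all tested genes. The study's own DESeq2 analysis listed Iars as upregulated at q ≤ 0.05. In the fits made here, no synthetase passed an adjusted p of 0.05 in edgeR's quasi-likelihood test, which called 0 of 14792 genes (0.0%), and none passed in limma-voom or in DESeq2, which called 0.158% of the genes as higher and 0.0144% as lower. At an unadjusted p under 0.05, 14 of the 20 were higher in CAP and 0 were lower, where 5.89% of all tested genes were higher and 4.68% were lower. In 11 of the 20, every CAP library lay above every Air library, which held for 8.44% of all tested genes (16.9% when counted in either direction). The 16 mitochondrial genes had 10 positive and 6 negative log2 fold changes with a median of 0.04 (1.03-fold), 0 of them had an unadjusted p under 0.05, and the groups overlapped in all 16.

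**Figure D1:**
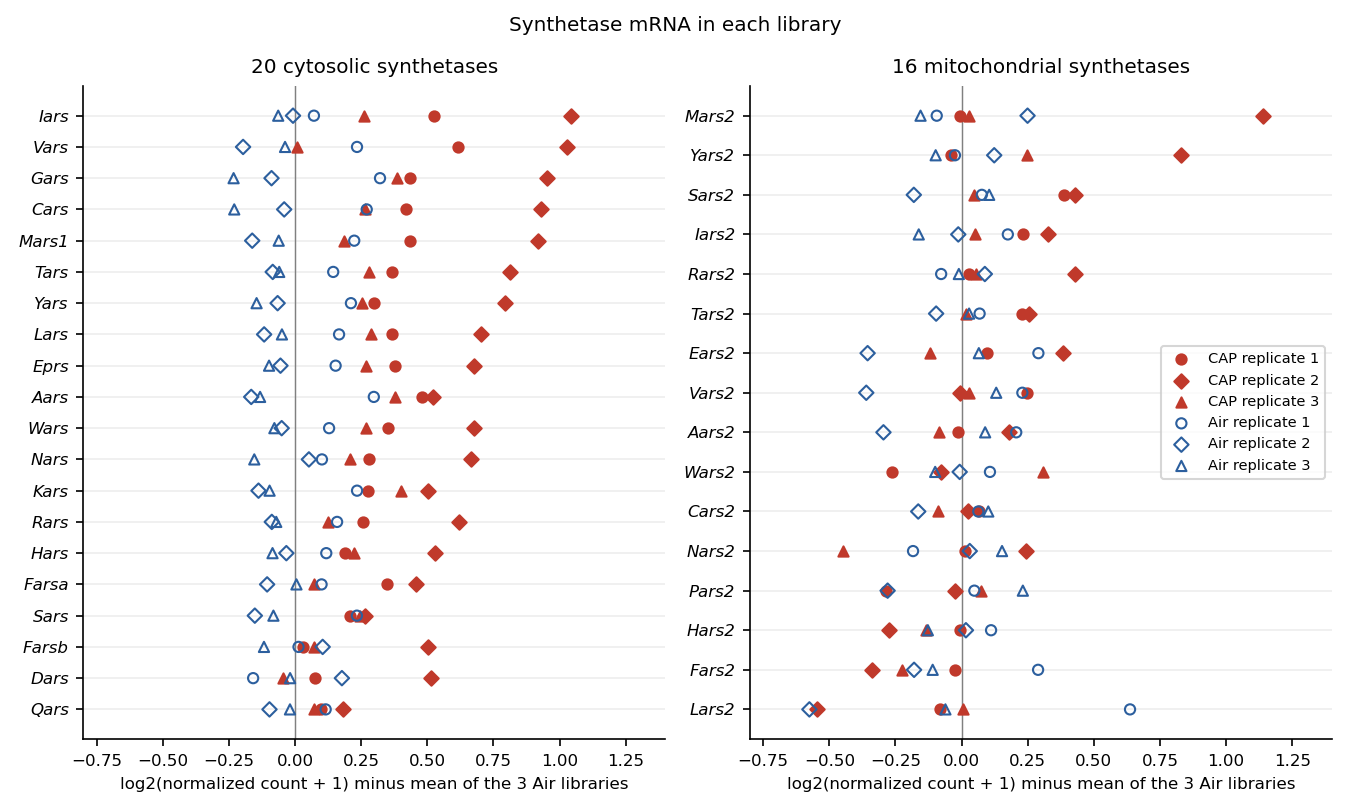
Level of each synthetase mRNA in each library, as log2(normalized count + 1) minus the mean of the 3 Air libraries, for 20 cytosolic genes (left) and 16 mitochondrial genes (right), sorted by the fitted change, with filled red symbols for CAP and open blue symbols for Air. In the cytosolic panel CAP replicate 2 is the highest library for all 20 genes and Air replicate 2 or 3 is the lowest for 19 of them, while the mitochondrial panel shows no common order.

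The same comparison held library by library, although the libraries of a group differed. The median level of the cytosolic genes, as log2 difference from the Air mean, was 0.35, 0.67 and 0.25 in CAP replicates 1 to 3, against 0.16, −0.09 and −0.08 in Air replicates 1 to 3. CAP replicate 2 was thus the highest and Air replicate 1 the closest to the CAP libraries, but the groups did not overlap in this median. For the mitochondrial genes the same median was 0.00, 0.21 and 0.02 in the CAP libraries and 0.09, −0.13 and 0.01 in the Air libraries, which overlapped. Summed over the 20 cytosolic genes, the normalized counts were 88177, 109604 and 82993 in the CAP libraries (mean 93591 ± 14107, SD, n = 3) and 79366, 67140 and 65611 in the Air libraries (mean 70706 ± 7539, SD, n = 3), which is 1.32-fold higher in CAP.

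Without CAP replicate 2, all 20 cytosolic genes still had positive log2 fold changes, against 47.2% of all genes tested without that library, and their median was 0.30, beside −0.02 for all tested genes. Of the 20, 8 had an unadjusted p under 0.05 and were higher in CAP (Aars, Eprs, Gars, Iars, Kars, Lars, Tars and Wars), where 4.11% of all tested genes were; 0 genes (0.0%) passed after adjustment. For 12 of the 20 the log2 fold change with all libraries was more than 1.5 times that without CAP replicate 2 (Cars, Dars, Farsb, Gars, Hars, Iars, Mars1, Nars, Rars, Tars, Vars and Yars). The mitochondrial median without it was −0.01, with 7 of 16 values positive. Leaving out CAP replicate 3 or Air replicate 1 gave 19 of the 36 synthetases with no overlap between groups instead of 11, beside 36% of all tested genes without CAP replicate 3 and 32.2% without Air replicate 1. No synthetase passed in edgeR when any 1 of the 6 libraries was left out. In DESeq2, 5 passed without CAP replicate 3 (Eprs, Iars, Mars1, Tars and Vars), where 3.02% of all genes passed and were higher in CAP, and 1 passed without Air replicate 1 (Aars, where 0.463% did).

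**Figure D2:**
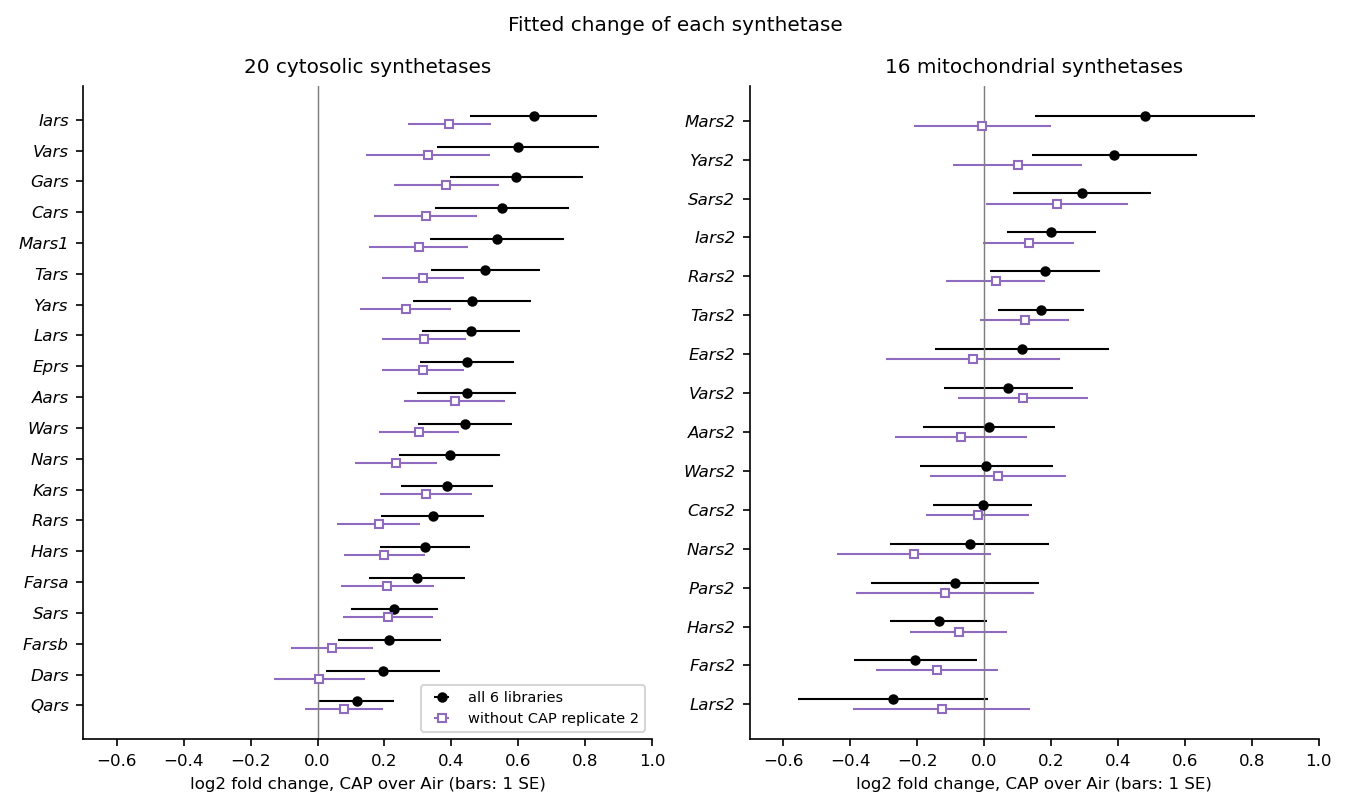
Fitted log2 fold change of each synthetase (CAP over Air) with 1 standard error, for all 6 libraries (black circles) and without CAP replicate 2 (open squares), for 20 cytosolic (left) and 16 mitochondrial genes (right). The cytosolic values lie at 0.12 to 0.65 with all libraries and at 0.00 to 0.41 without CAP replicate 2, and those of Mars2 are 0.48 and −0.01.

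Iars, the isoleucyl enzyme of the multisynthetase complex (chromosome 13, 49682100 to 49734267 in GRCm38), had the largest fitted change. It had 4699.5, 6729.6 and 3915 normalized counts in CAP replicates 1 to 3, against 3431, 3248 and 3124 in Air replicates 1 to 3. Every CAP library lay above every Air library, with CAP replicate 2 far above the other two. The log2 fold change was 0.65 ± 0.19 (SE, edgeR adjusted p = 0.468) and 0.39 without CAP replicate 2. The study lists Iars as upregulated by DESeq2, while its adjusted p in the DESeq2 fit made here was 0.173. Why these calls differ was not tested. Gars, the glycyl enzyme of both compartments, had 5896, 8443 and 5692 normalized counts in the CAP libraries and 5451, 4102 and 3714 in the Air libraries. CAP replicate 3 was the lowest CAP library and Air replicate 1 the highest Air library, and these 2 lay close together without overlapping. Its log2 fold change was 0.59 ± 0.20 (SE, edgeR adjusted p = 0.468) and 0.38 without CAP replicate 2.

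The valyl enzyme Vars had 2952, 3931 and 1936 normalized counts in the CAP libraries, against 2265, 1680.3 and 1876 in the Air libraries. Here CAP replicate 3 lay below Air replicate 1, so the groups overlapped, and the spread in CAP was the widest of the cytosolic set, with a coefficient of variation of 33.9%. Its log2 fold change was 0.60 ± 0.24 (SE, edgeR adjusted p = 0.468) and 0.33 without CAP replicate 2. Cars, which charges cysteine, had 2924, 4170.5 and 2625 normalized counts in the CAP libraries and 2640.1, 2127 and 1866 in the Air libraries. Mars1, the methionyl enzyme that also charges the initiator tRNA, had 2282, 3189.9 and 1920.3 in CAP and 1970.4, 1508 and 1616 in Air. In both genes CAP replicate 3 was just below Air replicate 1, while the other CAP libraries lay above all Air libraries. Their log2 fold changes were 0.55 for Cars and 0.54 for Mars1, or 0.32 and 0.30 without CAP replicate 2. The same arrangement held for 5 overlapping cytosolic genes in all, which were Cars, Farsa, Mars1, Rars and Vars.

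Among the 11 genes without overlap, the coefficient of variation within CAP was smallest for Aars, followed by Kars (7.85%). Aars, the alanyl enzyme, had 10548, 10868 and 9849 normalized counts in the CAP libraries, against 9306, 6749 and 6908 in the Air libraries. Kars, the lysyl enzyme of both compartments, had 4018, 4703 and 4387 in CAP and 3906, 3017 and 3106 in Air. In these genes CAP replicate 2 lay close to the next CAP library, and the log2 fold changes depended less on it: 0.45 with it and 0.41 without it for Aars, and 0.39 and 0.32 for Kars.

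Among the enzymes with roles in vessels, the threonyl enzyme Tars had 3153, 4294 and 2970.3 normalized counts in the CAP libraries and 2703, 2307 and 2346 in the Air libraries. The tyrosyl enzyme Yars had 2229, 3140.1 and 2159 in CAP and 2097, 1731 and 1638 in Air, and the tryptophanyl enzyme Wars had 3532, 4421 and 3333 in CAP and 3026, 2673 and 2622 in Air. Every CAP library lay above every Air library in these 3 genes, as in 11 of the 20 cytosolic genes and 8.44% of all tested genes. The log2 fold changes of the 3 were 0.50 ± 0.16, 0.46 ± 0.18 and 0.44 ± 0.14 (SE, edgeR adjusted p = 0.468 for each). They were 0.32 for Tars, 0.26 for Yars and 0.30 for Wars without CAP replicate 2. Wars is also an interferon-inducible gene in human cells. Its highest level was in CAP replicate 2, as for all 20 cytosolic genes, and the median of 10 interferon response genes was lowest in that library. A relation between Wars and the interferon response was not tested.

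The remaining genes without overlap were Eprs, Hars, Lars and Nars. Eprs encodes the bifunctional enzyme that charges glutamate and proline and had 6566, 8066 and 6082 normalized counts in the CAP libraries, against 5619, 4863 and 4719 in the Air libraries. Nars, the asparaginyl enzyme, was the most abundant synthetase per kilobase of exon and had 9807, 12820.4 and 9345 in CAP and 8674, 8383 and 7265 in Air. In both, Air replicate 1 was the Air library nearest to the CAP libraries. The leucyl enzyme Lars had 3465, 4374 and 3283 normalized counts in CAP and 3017, 2479 and 2598 in Air, and the histidyl enzyme Hars had 2488, 3150.0 and 2548 in CAP and 2367, 2132 and 2056 in Air. For Hars, CAP replicates 1 and 3 lay only a little above Air replicate 1. The log2 fold changes of these 4 genes were 0.45 ± 0.14 for Eprs, 0.39 ± 0.15 for Nars, 0.46 ± 0.15 for Lars and 0.32 ± 0.14 for Hars (SE, edgeR adjusted p = 0.468 each). Without CAP replicate 2 they were 0.31 for Eprs, 0.23 for Nars, 0.32 for Lars and 0.20 for Hars.

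In the cytosolic genes not yet described the groups overlapped. Qars, the glutaminyl enzyme of the complex, had 4793, 5078 and 4705 normalized counts in the CAP libraries and 4847, 4184 and 4414 in the Air libraries, with a log2 fold change of 0.12 ± 0.11 (SE, edgeR adjusted p = 0.684). Dars, the aspartyl enzyme, had 2458, 3331 and 2259 in CAP and 2088, 2635 and 2301 in Air. Without CAP replicate 2 the log2 fold change of Dars was 0.00 and that of Farsb, the beta subunit of phenylalanyl-tRNA synthetase, was 0.04. Farsb had 2261, 3131 and 2323 normalized counts in CAP and 2232, 2377 and 2038 in Air, and only CAP replicate 2 lay above all Air libraries. Farsa, the alpha subunit, had 1652, 1783 and 1364 in CAP and 1393, 1208 and 1304 in Air. The fitted value for Farsa was 0.30 on the log2 scale, or 0.21 without CAP replicate 2. The seryl enzyme Sars had 8311, 8649.9 and 8524 normalized counts in the CAP libraries and 8462, 6476 and 6799 in the Air libraries, and the groups overlapped because CAP replicate 1 lay below Air replicate 1. The arginyl enzyme Rars had 4143, 5330.4 and 3775 in CAP and 3871, 3262 and 3300.1 in Air, and its log2 fold change was 0.34 ± 0.15 (SE, edgeR adjusted p = 0.468) and 0.18 without CAP replicate 2.

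The promoters of part of the cytosolic genes hold the letters TGATGNAA, the core of the C/EBP-ATF response element to which ATF4 binds as a dimer with a C/EBP factor. RefSeq windows (GRCm38.p6, 250 bases before to 50 after the start site) were at hand for 27 of the 36 genes, 13 cytosolic and 14 mitochondrial. These were 28 windows, and in 20 of them the bases just after the start site lay in an annotated transcript of the gene. In the others the start site, and so the absence of a match near it, is less certain. The motif, searched on both strands, was in the windows of 5 of the 13 cytosolic genes and 0 of the 14 mitochondrial genes, and in 3.97% of 32851 promoter windows. The 9 genes with no window used here were Cars, Hars, Lars, Nars, Rars, Vars and Wars of the cytosolic and Hars2 and Pars2 of the mitochondrial set. The matches are shown because these 5 genes were all among the 11 without overlap between groups. Such a lack of overlap, in either direction, held for 16.9% of all tested genes. Capitals mark the motif or its reverse complement in the 5′ to 3′ direction of the gene.
Iars (chr13:49682126-49682155, + strand): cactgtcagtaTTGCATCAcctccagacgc
Gars (chr6:55037960-55037989, + strand): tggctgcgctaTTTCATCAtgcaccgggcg
Tars (chr15:11399655-11399684, − strand): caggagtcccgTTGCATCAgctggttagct
Yars (chr4:129189895-129189924, + strand): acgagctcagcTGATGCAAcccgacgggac
Aars (chr8:111033840-111033869, + strand): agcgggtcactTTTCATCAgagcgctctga
The first base of the match shown was 7 bases after the start site in Iars, 30 bases before it in Gars, 15 bases before it in Tars, 3 bases after it in Yars and 9 bases after it in Aars.

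The 5 genes with the motif had log2 fold changes of 0.45 to 0.65 with a median of 0.50, and the other 8 cytosolic genes with a window had 0.12 to 0.54 with a median of 0.26. Without CAP replicate 2 these medians were 0.38 and 0.21. Of those 8 genes, 2 had every CAP library above every Air library, which held for 8.44% of all tested genes. The genes with and without the motif were not tested against each other. The E-box letters CACGTG, to which MYC and its partner MAX bind, were in the windows of 4 of the 13 cytosolic genes (Aars, Farsb, Iars and Tars) and 1 of the 14 mitochondrial genes (Ears2), and in 7.15% of all windows. A match says only that the letters are present; no binding was measured here.

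Grouped by role, all cytosolic subgroups had positive medians. The 12 known ATF4 targets (Aars, Cars, Eprs, Gars, Iars, Lars, Mars1, Nars, Sars, Tars, Wars and Yars) had a median log2 fold change of 0.46, 11 of them were higher in CAP at an unadjusted p under 0.05, and 9 had every CAP library above every Air library, beside 5.89% and 8.44% of all tested genes. Without CAP replicate 2 their median was 0.32, with 7 higher at an unadjusted p under 0.05, beside 4.11% of all genes. The 5 genes with a TGATGNAA match all stand in this list. The other 8 cytosolic genes had a median of 0.31, with 3 higher in CAP at an unadjusted p under 0.05 and 2 without overlap, and without CAP replicate 2 a median of 0.19 with 1 such gene. The 8 enzymes of the multisynthetase complex had a median of 0.42. The enzymes fall into classes I and II by the fold of the catalytic domain, and the 9 of class I had a median of 0.46 and the 10 of class II one of 0.35, or 0.30 and 0.22 without CAP replicate 2. These are descriptions of small groups that were chosen with earlier results of these data known, and they were not tested against each other.

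In the mitochondrial set the highest and the lowest values each rested on 1 library. Mars2, the methionyl enzyme (chromosome 1, 55237177 to 55248470), had 308, 683 and 315 normalized counts in the CAP libraries, against 289.6, 368 and 278 in the Air libraries. Only CAP replicate 2 lay above the Air libraries, and the log2 fold change of 0.48 ± 0.33 (SE, edgeR adjusted p = 0.574) became −0.01 without it. Lars2, the leucyl enzyme (chromosome 9, 123366927 to 123462666), had 7988, 5791 and 8481 normalized counts in the CAP libraries and 13137, 5670.4 and 8099 in the Air libraries. Air replicate 1 was the highest and Air replicate 2 the lowest, a coefficient of variation of 42.5% in Air, and the log2 fold change of −0.27 ± 0.28 (SE, edgeR adjusted p = 0.708) turned to 0.11 without Air replicate 1.

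Lars2 gave 33.6% to 46.6% of the summed mitochondrial synthetase counts in the CAP libraries and 37.9% to 55.5% in the Air libraries. With it, the mitochondrial sum was 17969 ± 669 normalized counts in CAP and 18725 ± 4460.2 in Air (SD, n = 3 each). Without it, a choice made after its level was seen, the sum was 10549 ± 856 in CAP and 9756 ± 663 in Air (SD, n = 3 each), or 1.08-fold higher in CAP. The direction of the mitochondrial sum thus depended on Lars2, while each of the 20 cytosolic genes had a higher mean in CAP.

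Yars2, the tyrosyl enzyme of mitochondria, had 322, 591 and 394 normalized counts in the CAP libraries and 326, 362 and 310.1 in the Air libraries, and its log2 fold change of 0.39 became 0.10 without CAP replicate 2. The seryl enzyme Sars2, with 330.0, 339.8 and 260.5 in CAP and 266, 223 and 271 in Air, and the threonyl enzyme Tars2, with 1478, 1507 and 1277 in CAP and 1322, 1179.6 and 1286 in Air, depended less on that library. Their log2 fold changes were 0.29 ± 0.21 and 0.17 ± 0.13 (SE, edgeR adjusted p = 0.582 and 0.606). The isoleucyl enzyme Iars2 had 3123, 3334 and 2754 in CAP and 3001, 2635 and 2376 in Air, and the arginyl enzyme Rars2 had 674, 891 and 688 in CAP and 627, 703 and 657 in Air. Their log2 fold changes were 0.20 ± 0.13 for Iars2 and 0.18 ± 0.16 for Rars2 (SE, edgeR adjusted p = 0.564 and 0.666), and in Rars2 only CAP replicate 2 lay above all Air libraries. Without that library the values were 0.13 for Iars2 and 0.03 for Rars2.

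The other mitochondrial enzymes were near 0 or slightly lower in CAP. Fars2, the phenylalanyl enzyme, had 638, 513 and 555 normalized counts in the CAP libraries and 794, 573 and 602 in the Air libraries, and Hars2, the histidyl enzyme, had 893, 741 and 817 in CAP and 968, 907 and 820.4 in Air. Their log2 fold changes were −0.21 ± 0.18 and −0.14 ± 0.15 (SE, edgeR adjusted p = 0.661 and 0.714), or −0.14 and −0.08 without CAP replicate 2. Aars2, Cars2, Ears2, Nars2, Pars2, Vars2 and Wars2 lay at −0.09 to 0.11, and each changed sign when 1 library was left out. Ears2, which charges both glutamate and glutamine tRNA in mitochondria, had 189, 231 and 163 normalized counts in CAP and 216, 138 and 185 in Air, and the alanyl enzyme Aars2 had 387, 442 and 368 in CAP and 451, 318 and 416 in Air. The cysteinyl enzyme Cars2 had 743, 721 and 667 in CAP and 742, 634 and 761 in Air, and the valyl enzyme Vars2 had 679, 569 and 583 in CAP and 671, 445 and 626 in Air. In all 4 of these genes Air replicate 2 was the lowest library. The asparaginyl enzyme Nars2 had 265, 312 and 193 in CAP and 232, 269 and 293 in Air, the prolyl enzyme Pars2 had 130.3, 156 and 168 in CAP and 165, 131 and 187 in Air, and the tryptophanyl enzyme Wars2 had 345, 393 and 513 in CAP and 446, 412 and 386 in Air. CAP replicate 3 was the lowest library for Nars2 and the highest for Wars2.

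For 14 amino acids this set holds a cytosolic and a mitochondrial gene that each serve that amino acid, which sets the compartments side by side. Eprs was left out of these pairs, as it serves both glutamate and proline in the cytosol. Its log2 fold change was 0.45, beside 0.11 for Ears2 and −0.09 for Pars2. For phenylalanine, the alpha subunit Farsa was paired with Fars2 and the beta subunit Farsb was left out. The log2 fold change was 0.30 for Farsa and 0.21 for Farsb. Per kilobase of exon, Farsa had 353 normalized counts in CAP and Farsb had 981. The log2 fold change was greater for the cytosolic gene in 13 of the 14 pairs, with a median difference of 0.44. The largest difference was 0.73, between Lars and Lars2, and the value of Lars2 turned positive without Air replicate 1. The exception was the seryl pair, with 0.23 for Sars and 0.29 for Sars2. The methionyl and tyrosyl pairs differed by 0.06 and 0.07, and in both the mitochondrial gene was highest in CAP replicate 2. Taken over the sets, the cytosolic median exceeded the mitochondrial one by 0.40 on the log2 scale. Per library the same difference was 0.35, 0.46 and 0.23 in CAP replicates 1 to 3, against 0.06, 0.04 and −0.09 in Air replicates 1 to 3, and it was 0.32 without CAP replicate 2.

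**Figure D3:**
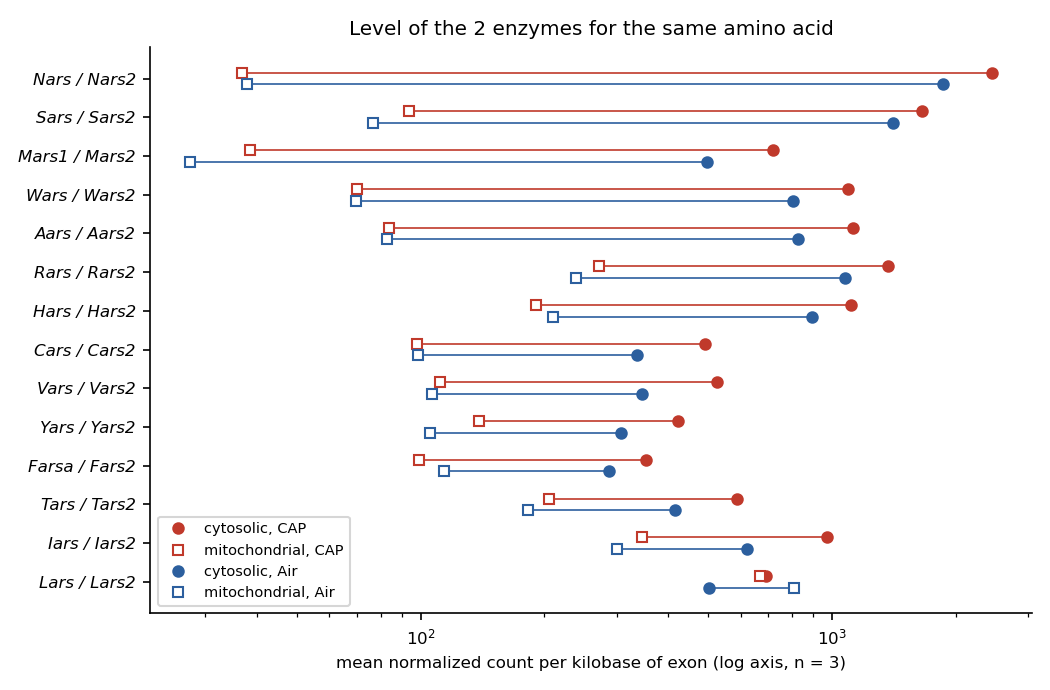
Mean level per kilobase of exon (normalized counts, log axis, n = 3 per group) of the cytosolic (filled circles) and the mitochondrial enzyme (open squares) for 14 amino acids, with CAP in red above Air in blue. The cytosolic gene is higher in all 14 pairs in CAP and in 13 in Air, the exception being Lars and Lars2. The phenylalanyl pair is Farsa and Fars2, without Farsb.

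In level, the cytosolic mRNAs were the more abundant ones. Per kilobase of exon they had 353 to 2447 normalized counts in CAP and 279.9 to 1862 in Air, against 36.8 to 669 in CAP and 27.6 to 809 in Air for the mitochondrial mRNAs. The median ratio of cytosolic to mitochondrial level per kilobase was 5.03 in CAP and 3.83 in Air over the 14 pairs. It was widest for Nars and Nars2, at 66.4 in CAP and 49.0 in Air, and narrowest for Lars and Lars2, at 1.03 in CAP and 0.62 in Air. Per kilobase, Nars, Gars and Sars were the highest cytosolic genes in both groups, and Lars2 and Iars2 the highest mitochondrial genes. These ranges, ratios and ranks depend on the length used, the union of all annotated exons. It was 9282 bases for Aars and 4355 for Nars, whose mean normalized counts in CAP were 10422 and 10658.

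Partners of the synthetases had values in both directions. Of the non-enzyme proteins that hold the multisynthetase complex together, Aimp1 had 1689, 1742 and 1636 normalized counts in the CAP libraries and 2028, 1736 and 1779 in the Air libraries, while Aimp2 had 737, 1271 and 658 in CAP and 659.5, 605 and 551 in Air. Eef1e1, the third, had 482, 847 and 390.2 in CAP and 382, 445 and 347 in Air. The log2 fold changes of Aimp2 and Eef1e1 were 0.55 and 0.55 with all libraries and 0.20 and 0.15 without CAP replicate 2, and that of Aimp1 was −0.13. Among subunits of elongation factor 1, which brings charged tRNA to the ribosome, Eef1d had 0.35 ± 0.14 and Eef1g 0.40 ± 0.17 (SE, edgeR adjusted p = 0.468 each), against 0.01 for Eef1a1, the subunit that binds the tRNA. Eef1d had 0.22 and Eef1g 0.27 without CAP replicate 2.

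Xpot, which exports tRNA from the nucleus, had a log2 fold change of 0.41, or 0.14 without CAP replicate 2, and 0 of the 6 genes of tRNA handling and editing had an unadjusted p under 0.05. On the mitochondrial side, 6 of 7 genes that handle charged tRNA had positive values, beside 48.8% of all tested genes. Their median was 0.25, or 0.09 with 5 positive values without CAP replicate 2. Of the 7, 1 was higher in CAP at an unadjusted p under 0.05, beside 5.89% of all tested genes. This was Tsfm, the exchange factor of the mitochondrial elongation factor. It had 525, 774 and 637 normalized counts in the CAP libraries, against 485, 413 and 434 in the Air libraries. Its log2 fold change was 0.54 ± 0.19 (SE, edgeR adjusted p = 0.468), or 0.38 without CAP replicate 2. Of the 5 genes that make or read selenocysteine tRNA, 0 had an unadjusted p under 0.05.

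The amino acid response, the set of genes that ATF4 and its partners switch on, had values like those of the cytosolic synthetases or larger. Of 26 genes, 20 had positive log2 fold changes, with a median of 0.59, or 0.37 without CAP replicate 2, and 0 passed an adjusted p of 0.05 in edgeR. At an unadjusted p under 0.05, 16 were higher in CAP, beside 5.89% of all tested genes, and 14 had every CAP library above every Air library, beside 8.44%. The study's own DESeq2 analysis listed Chac1, Slc7a5, Shmt2 and Asns of this list as upregulated. Chac1, which degrades glutathione, had 183, 489 and 219.6 normalized counts in the CAP libraries, against 131, 82.6 and 53.9 in the Air libraries. Its log2 fold change was 1.73 ± 0.46 (SE, edgeR adjusted p = 0.468) and 1.16 without CAP replicate 2. Asns, asparagine synthetase, had 2534, 3951 and 2516 in CAP and 2215, 1628 and 1480.3 in Air. The fitted value for Asns was 0.76 on the log2 scale, or 0.50 without CAP replicate 2. Atf4 itself had 6638, 8523 and 6342 in CAP and 6267, 4944 and 5097 in Air, without overlap and with a log2 fold change of 0.40 ± 0.15 (SE, edgeR adjusted p = 0.468), or 0.25 without CAP replicate 2.

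Other genes of this list with the lowest p were Pycr1 and Aldh18a1 of proline synthesis, Slc7a5, a carrier of large neutral amino acids, and Phgdh, the first enzyme of serine synthesis. Their log2 fold changes were 1.01 ± 0.29, 0.58 ± 0.17, 1.11 ± 0.32 and 1.03 ± 0.31 (SE, edgeR adjusted p = 0.468 each). They were 1.001 for Pycr1, 0.42 for Aldh18a1, 0.66 for Slc7a5 and 0.67 for Phgdh without CAP replicate 2. Not all of the list was higher: Sesn2, Ddit4, Slc1a5, Cebpb, Nupr1 and Vldlr had negative log2 fold changes of −0.34 to −0.05, of which those of Sesn2 and Vldlr were positive without CAP replicate 2. Over the libraries the median of the 26 genes was 0.43, 0.81 and 0.27 in CAP replicates 1 to 3, against 0.19, −0.09 and −0.11 in Air replicates 1 to 3, which is the same order of libraries as for the cytosolic synthetases except that Air replicates 2 and 3 change places.

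**Figure D4:**
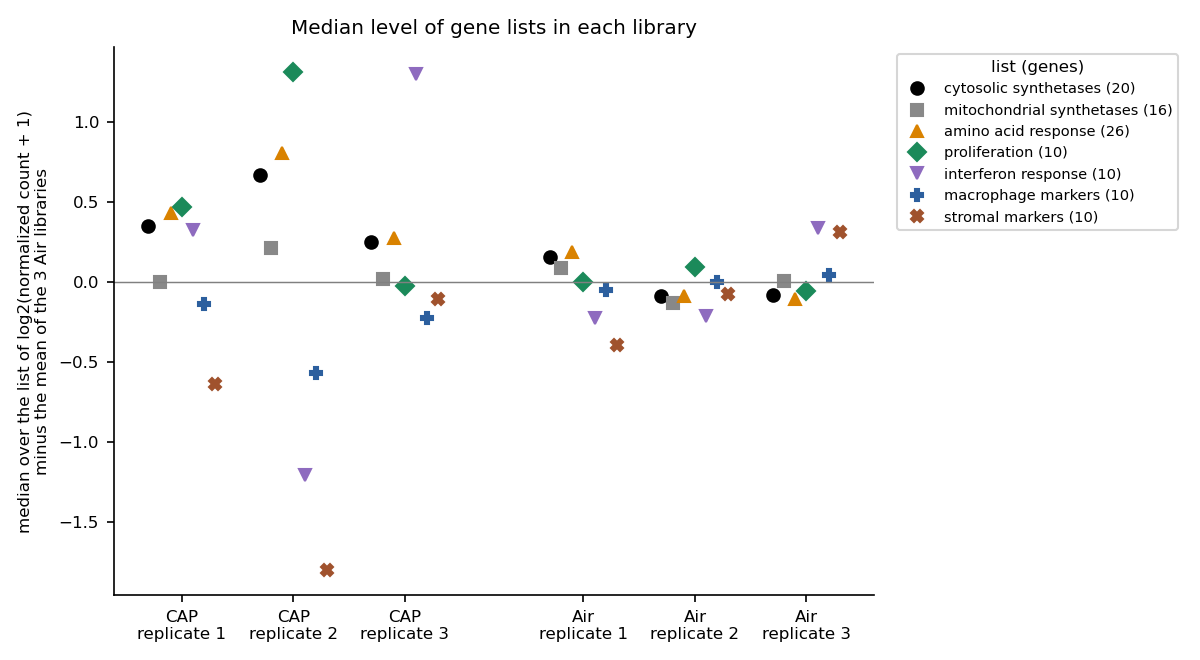
Median over each gene list of log2(normalized count + 1) minus the mean of the 3 Air libraries, for the CAP libraries (left) and the Air libraries (right). The cytosolic synthetases and the amino acid response are highest in CAP replicate 2 and above 0 in all CAP libraries, proliferation genes are highest in CAP replicate 2 and near 0 in CAP replicate 3, and stromal and macrophage markers are lowest in CAP replicate 2.

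Proliferation genes and markers of other cell types also differed between the libraries. All 10 proliferation genes had positive log2 fold changes with a median of 0.67, all were highest in CAP replicate 2, and the median was 0.25 without that library. Their median level was 0.47, 1.32 and −0.02 in CAP replicates 1 to 3, where that of the cytosolic synthetases was 0.35, 0.67 and 0.25. Among the CAP libraries, both medians were highest in replicate 2 and lowest in replicate 3. The relation between these lists was not tested. Myc had 1017, 1913 and 814 normalized counts in the CAP libraries and 671, 665 and 621 in the Air libraries, without overlap, while Hprt, a gene often taken as a reference, had a log2 fold change of −0.02, or −0.22 without CAP replicate 2.

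Macrophage markers had 9 of 10 negative values with a median of −0.27 (−0.18 without CAP replicate 2). Their summed level was 764761 to 963493 normalized counts in the CAP libraries and 1067410 to 1130690 in the Air libraries, without overlap. Most of this sum came from Ctsb (311833 to 493146 per library) and Lyz2 (282568 to 377406). Of the 10 markers, 5 had every CAP library below every Air library and 5 overlapped. No overlap, in either direction, held for 16.9% of all tested genes. Stromal markers had 10 of 10 negative values with a median of −0.66, and sums of 56121 to 138856 in CAP and 136049 to 216106 in Air. Their values ran from −2.16 for Lum to −0.03 for Col1a2. Without CAP replicate 2 the stromal median was −0.45, with 2 of 10 values positive. Lum, which encodes a matrix proteoglycan of stromal cells, was at 0 in CAP replicate 2. Endothelial markers had 8 of 10 negative values with a median of −0.89 (−0.70 without CAP replicate 2). Their sums were 2987 to 3687 in CAP, and 3225, 3064 and 5505 in Air replicates 1 to 3. Their median level was −0.78, −1.22 and −0.30 in CAP replicates 1 to 3, against −0.55, −0.33 and 0.94 in Air replicates 1 to 3. Air replicate 3 thus stood far above the other Air libraries, and CAP replicate 3 also lay above those. The 8 neutrophil markers had 4 negative values and sums of 324 to 442 in CAP and 261 to 485 in Air. The interferon response genes had 9 of 10 positive values with a median of 0.42, which was 0.93 without CAP replicate 2. The part of these differences in the synthetase values was not tested.

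Some synthetase values are uncertain because the strand setting of the counting is not given in the sources used here or because sequence is shared. Mars1 overlaps the amino acid response gene Ddit3 on the opposite strand, and Hars and Hars2 start head to head with their first 197 bases overlapping. Iars shares 1656 bases at 96.0% identity with the pseudogene Gm4849. Aars, Fars2 and Iars2 share 1326, 503 and 2034 bases of annotated transcript with Exosc6, Nrn1 and Rab3gap2. Over all libraries Exosc6 had 0 counts, Nrn1 3485 and Rab3gap2 31868. Rab3gap2 overlaps Iars2 on the opposite strand. Ddit3 had a log2 fold change of 0.44 beside 0.54 for Mars1, and Rab3gap2 had 0.19 beside 0.20 for Iars2. Terf2ip, which starts 75 bases from Kars on the opposite strand, had a log2 fold change of −0.29 beside 0.39 for Kars. S100pbp, which starts 33 bases from Yars, had −0.24 beside 0.46 for Yars.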

How the data were processed

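mRNA was sequenced from EPC cultures of 3 CAP-exposed and 3 air-exposed mice. For the deposited table of raw counts, the authors mapped single-end reads from stranded poly-A libraries to mm10 (STAR 2.6) and counted them by gene (HTSeq 0.10.0). Which annotation release, strand setting and rule for multi-mapped reads they used is not given in the sources used here. GENCODE vM21 (GRCm38) supplied gene names, coordinates and exon lengths and held 99.9% of the IDs, and RefSeq supplied promoter windows.

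CAP was compared with Air by the quasi-likelihood test of edgeR 4.0.16 in R 4.3.3, after relative log expression normalization and a minimum total of 10 counts, with Benjamini-Hochberg adjustment over 14792 genes and a threshold of 0.05. To obtain a standard error, the size of the log2 fold change was divided by the square root of F. Normalized counts are counts divided by size factors, log2 levels had a pseudocount of 1, and levels per kilobase used the union of exons. Depth was 28713206 to 30446171 counts per library, and the biological coefficient of variation was 26.3%, so that the spread between mice limits the precision. The p-values measure only the spread between 3 mice of 1 cage per group. The fit was tested on simulated counts. Shared sequence was sought with blastn 2.17.0 (at least 500 bases at 95% identity).

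The alternatives were TMM, no count filter, filterByExpr, DESeq2 1.42.0, limma-voom (limma 3.58.1), a block for the replicate number, and each library left out in turn, with edgeR and with DESeq2. The main fit used edgeR's newer quasi-likelihood form. The written design did not specify the form, and this one was taken after the files were seen because it gave the values of an earlier analysis of these data; the older form, like the newer one, called 0 genes. The older form and the mitochondrial sum without Lars2 were added as alternatives with the data in view. The members and all lists were chosen with earlier results of these data known, so the sets are described by counts and medians without a test. All 36 members are named. From each other list the rule allowed up to 6 genes of lowest p, and further genes of those lists, like the neighbouring genes, were picked with their values known. The miRNA libraries were not analysed here, and a further gene and a promoter match are not reported here.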

Additional observations from a re-analysis of the deposited data

How the results depend on the processing

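All 20 cytosolic synthetases kept a positive log2 fold change in all 19 alternatives (380 values, the lowest 0.00 for Dars without CAP replicate 2). Of 304 mitochondrial values, 37 changed sign, in 9 genes. By edgeR 0 genes passed over the whole table under any of its settings, and limma-voom called 0, while DESeq2 called 24 (22 higher and 2 lower), and leaving out single libraries gave 0 to 794 over both tools (794 in DESeq2 without CAP replicate 3). The cytosolic synthetases that passed numbered 0 to 5 and the mitochondrial ones 0 when a library was left out. The median log2 fold change without single libraries was 0.30 to 0.52 for the cytosolic and −0.04 to 0.13 for the mitochondrial set. Their difference was 0.29 to 0.45, lowest without Air replicate 3, and members without overlap numbered 11 to 19.

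Without single libraries the log2 fold changes of the mitochondrial genes whose sign turned ranged from −0.12 to 0.12 (Aars2), −0.082 to 0.048 (Cars2), −0.047 to 0.27 (Ears2), −0.52 to 0.11 (Lars2), −0.0056 to 0.68 (Mars2), −0.21 to 0.13 (Nars2), −0.22 to 0.036 (Pars2), −0.087 to 0.19 (Vars2) and −0.17 to 0.13 (Wars2). With limma-voom the value was 3.9e-05 for Cars2 and −0.013 for Wars2. The cause was not tested.

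The replicate numbers, taken from the sample titles, did not pair the samples. The headers of the count columns number all CAP samples and the last Air sample differently. Deviations of same-numbered libraries correlated at −0.02, 0.09 and 0.17, and not every library correlated best with its own number. With the replicate block 0 genes passed, the medians were 0.44 (cytosolic) and 0.05 (mitochondrial), their difference was 0.38, and the value of Wars2 under the block was −0.0071.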
